A study of Mus musculus with 6 samples.

Results

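The Krüppel-like factors (KLFs) described here are the products of 10 genes, Klf2, Klf3, Klf4, Klf6, Klf7, Klf9, Klf10, Klf11, Klf13 and Klf15, chosen by name from the 55401 genes listed in the count table. All 10 were among the 18438 genes with enough counts to be tested. The rule uses their names and no measured value, although earlier results of these data were known when the names were chosen. RNA came from kidney endothelial cells (ECs) of male mice, enriched with antibody-coupled beads and sorted as CD31+ CD45- cells, with 1 library per mouse. The RbpjΔEC group held 3 mice with a floxed Rbpj gene (Rbpj f/f) and the Cdh5CreERT2 transgene, in which the endothelial Cdh5 promoter drives a Cre recombinase that works only after tamoxifen. The CTRL group held 3 Cre-negative Rbpj f/f littermates. Both groups received 5 doses of 1.5 mg tamoxifen at 8 weeks of age and were taken 12 weeks later, with a labelled age of 21 weeks. The cells therefore differ between the groups in the Cre transgene as well as in Rbpj recombination, while the floxed allele and tamoxifen are common to both.

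KLFs are zinc finger transcription factors that bind GC-rich and CACCC-type sequences. In ECs, steady laminar flow activates the kinase ERK5 and MEF2 factors, which switch on Klf2 and Klf4, and these in turn raise genes that keep vessels relaxed and free of clots and lower inflammatory ones. Other members answer to growth factors, TGF-beta or glucocorticoids, or act as repressors that recruit CtBP or Sin3 complexes. RBPJ is the DNA-binding factor through which Notch receptors regulate their targets.

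The promoters of Klf2 and Klf4 are shown because both genes are MEF2 targets and were the most abundant of the 10 per length of exon. They are RefSeq sequences on GRCm38.p6, at chr8:72318812-72319032 on the plus strand for Klf2 and chr4:55532476-55532725 on the minus strand for Klf4. The Klf2 stretch of 221 bases ends where the annotated gene begins, and the Klf4 stretch holds the 250 bases before the RefSeq start. Capitals mark a match to the MEF2 motif.
Klf2: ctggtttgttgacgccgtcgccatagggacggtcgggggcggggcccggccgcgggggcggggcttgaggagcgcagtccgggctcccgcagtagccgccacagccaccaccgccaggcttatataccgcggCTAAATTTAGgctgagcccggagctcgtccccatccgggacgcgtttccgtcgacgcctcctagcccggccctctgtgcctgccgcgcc
Klf4: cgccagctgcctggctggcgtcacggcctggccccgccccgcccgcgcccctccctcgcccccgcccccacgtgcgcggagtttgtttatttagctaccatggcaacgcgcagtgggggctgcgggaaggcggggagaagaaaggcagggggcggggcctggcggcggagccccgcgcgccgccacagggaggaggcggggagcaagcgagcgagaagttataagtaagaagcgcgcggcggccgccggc
The MEF2 match of Klf2 begins 118 bases before the RefSeq start.

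Promoters of 9 members were in the RefSeq table, all but that of Klf10. Motifs were searched on both strands in the 250 bases before each RefSeq start. The Klf7 window, chr1:64121390-64121639, lies wholly inside the annotated gene, and those of Klf2, Klf3, Klf6 and Klf11 lie partly inside theirs. The MEF2 motif was found in 1 of the 9, that of Klf2, and in 2.92% of all 32851 promoters. The core letters of the RBPJ site, TGGGAA, occurred in 0 of the 9 and in 21.6% of all promoters, and the longer form GTGGGAA, which contains them, in 0 of 9 and 5.42%. The SRF-binding CArG box (1.47% of all promoters) and the cyclic AMP response element TGACGTCA (1.55%) were in 0 of the 9. The KLF-binding letters CACCC were in 6, those of Klf2, Klf3, Klf7, Klf9, Klf13 and Klf15, and in 52.0% of all promoters. The longer form CCACACCC, which contains CACCC, was in 0 of 9 and in 3.20% of all. These matches describe the letters of the windows and are not measured binding sites.

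The libraries held between 39649171 and 47726850 counts on genes, so that 3 counts, taken as the floor, came to 0.0634 to 0.0749 CPM (reads per gene scaled to the size of each library). CTRL 1 listed counts on 33764 genes and the other 5 libraries on 25629 to 26785. Rbpj averaged 29.2 ± 0.964 CPM in the CTRL mice and 28.2 ± 1.86 CPM in the RbpjΔEC mice (SD, n = 3 each), but the count covers the whole gene and does not show the floxed part alone. Endothelial markers were abundant in every library, with 16808 to 18827 CPM summed over 8 genes in CTRL and 15246 to 15636 CPM in RbpjΔEC. Of 4 T cell genes, Cd3e and Cd3d were at 0 in all 6 libraries and Cd3g was above 0 in CTRL 1 alone (0.0748 CPM). Cd247 was at 1.42 to 3.19 CPM. At an adjusted p under 0.05, 106 genes rose and 103 fell in RbpjΔEC, with edgeR's quasi-likelihood test and Benjamini-Hochberg adjustment, which is the source of every adjusted p given here unless DESeq2 is named. The median log2 fold change over all tested genes was 0.01. In bulk RNA, fewer cells of a type and less RNA per cell cannot be told apart.

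None of the 10 KLF genes passed this test in either direction: 0 were higher, where 0.575% of all tested genes were, and 0 were lower, where 0.559% were. At an unadjusted p under 0.05, 0 of 10 passed by edgeR and 0 of 10 by DESeq2, against 17.5% of all tested genes by edgeR and 8.52% of all genes with a count by DESeq2. That count was 3 without the low-count filter (12.2% of all genes in that fit), 1 without CTRL 2 (21.1%) or CTRL 3 (12.8%), 2 without RbpjΔEC 2 (15.4%) and 4 without RbpjΔEC 3 (17.3%). Fold changes had a positive sign for Klf4 and Klf7 and a negative sign for the other 8, with a median of -0.14 on the log2 scale. In Klf3 and Klf13 the 3 RbpjΔEC libraries all lay below the 3 CTRL libraries, and 11.6% of all tested genes showed that order. Summed over the 10 genes, the level was 2846, 3121 and 2525 CPM in CTRL 1 to 3 and 2669, 2674 and 2780.3 CPM in RbpjΔEC 1 to 3, so the RbpjΔEC libraries lay within the CTRL range.

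**Figure D1:**
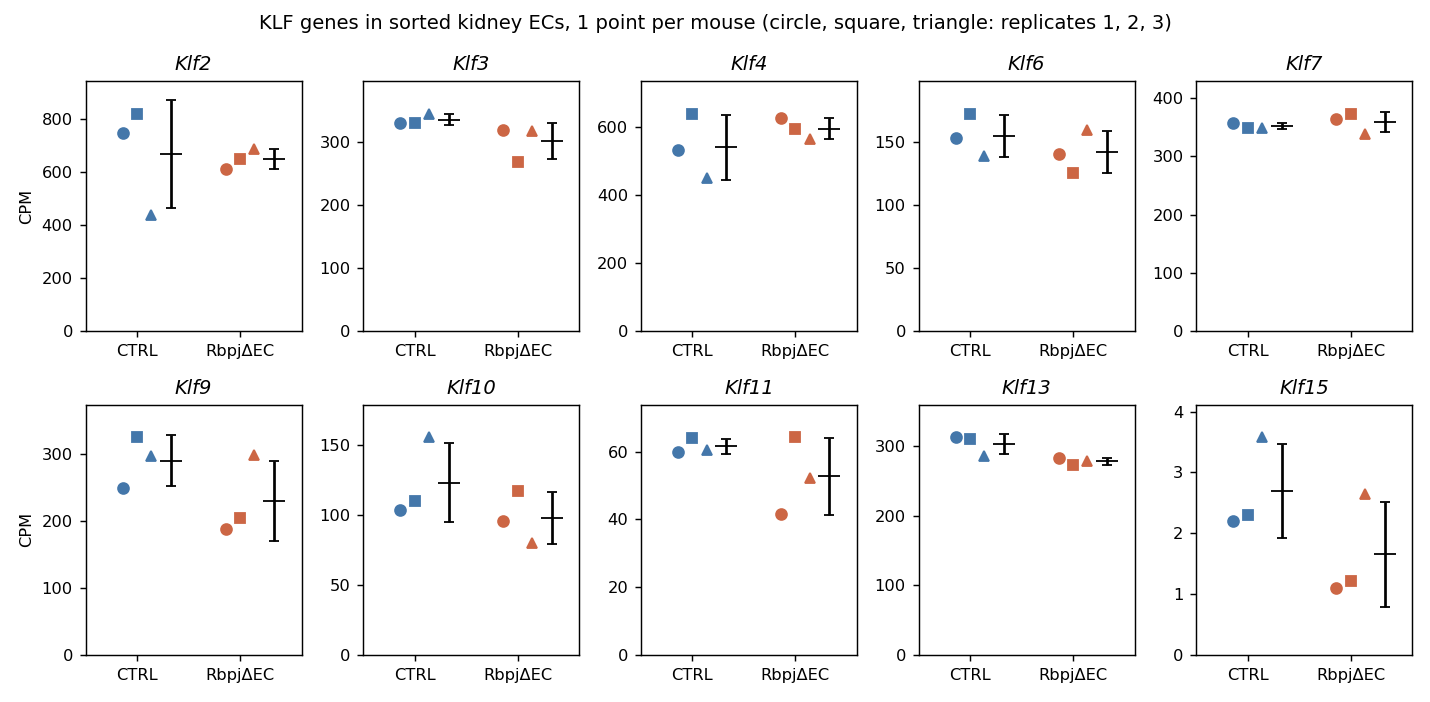
Level of each KLF gene in CPM (vertical axes, starting at 0) in the 3 CTRL (blue) and 3 RbpjΔEC (orange) libraries, 1 point per mouse, with mean and SD in black. The groups overlapped in 8 of the 10 genes, and in Klf3 and Klf13 all RbpjΔEC points were below all CTRL points.

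Compared per kb of exon, the level of Klf2 was the highest of the 10, at 361 ± 109 CPM per kb (SD, n = 3) in CTRL and 351 ± 20.8 in RbpjΔEC. Klf4 followed at 177 ± 31.2 CPM per kb in CTRL and 196 ± 10.05 in RbpjΔEC. Klf9, Klf7, Klf13, Klf6, Klf3 and Klf10 formed a middle range, with CTRL means from 60.4 CPM per kb for Klf9 down to 29.5 for Klf10. Neighbours in this order whose ranges over the 6 libraries overlapped were Klf9 and Klf7, Klf13 and Klf6, Klf6 and Klf3, and Klf3 and Klf10. Klf11 was lower, at 14.2 ± 0.510 CPM per kb in CTRL and 12.1 ± 2.61 in RbpjΔEC. Klf15 came last, at 0.964 ± 0.275 CPM per kb in CTRL and 0.592 ± 0.309 in RbpjΔEC, and its range did not overlap that of Klf11.

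**Figure D2:**
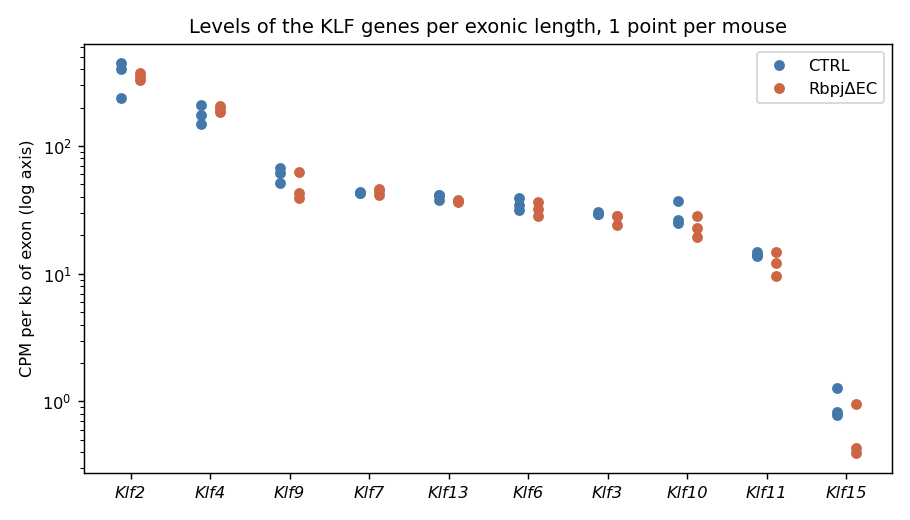
Level of each KLF gene in CPM per kb of exon (logarithmic vertical axis), ordered from highest to lowest mean, with 1 point per mouse for CTRL (blue) and RbpjΔEC (orange). Klf2 and Klf4 lay above the other genes in all 6 libraries and Klf15 lay below all others.

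Klf2 and Klf4, the flow-induced pair, were measured with wide spread in CTRL. Klf2 (ENSMUSG00000055148.7, GRCm38 chr8:72319033-72321656) was at 745, 819 and 438 CPM in CTRL 1 to 3 and at 609.9, 649.6 and 687 CPM in RbpjΔEC 1 to 3. CTRL 3 was the lowest of the 6 libraries and CTRL 1 and 2 the highest, so the RbpjΔEC libraries all fell between CTRL values. The group means were 667 ± 202 CPM for CTRL and 649 ± 38.5 CPM for RbpjΔEC (SD, n = 3 each), a log2 fold change of -0.04 (standard error 0.235, edgeR adjusted p = 0.950). The 95% interval of -0.62 to 0.54 corresponds to 0.650 to 1.46 times the CTRL level. The coefficient of variation was 30.3% over the CTRL libraries and 5.93% over the RbpjΔEC libraries. The sign of this fold change depended on single libraries: it was -0.27 without CTRL 3 (edgeR adjusted p = 0.247) and 0.13 without CTRL 2 (edgeR adjusted p = 0.817).

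Klf4 (ENSMUSG00000003032.8, chr4:55527143-55532466, minus strand) was at 532, 640.4 and 451 CPM in CTRL 1 to 3. In RbpjΔEC 1 to 3 it was at 627, 596 and 566 CPM, which is within the CTRL range. CTRL 3 was again the lowest library and CTRL 2 the highest. The means of 541 ± 95.1 and 596 ± 30.6 CPM gave a log2 fold change of 0.14 (standard error 0.113, edgeR adjusted p = 0.561), with a 95% interval of -0.11 to 0.39, or 0.926 to 1.31 times the CTRL level. Without CTRL 2 the fold change was 0.27 (edgeR adjusted p = 0.111), and without CTRL 3 it was 0.02 (edgeR adjusted p = 0.951). Klf2 and Klf4 together came to 1277, 1459 and 889 CPM in CTRL and to 1237, 1246 and 1252 CPM in RbpjΔEC.

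The genes whose profiles over the 6 libraries were nearest to that of Klf2, by the root mean square difference in log2 CPM about each gene's mean, were 9530056E24Rik (0.0670), Wdr12 (0.0890), Gfpt2 (0.114), Cenpt (0.128) and Kbtbd8 (0.138). The spread of Klf2 about its own mean was 0.285 on this scale, and 10433 genes were compared. All 5 had their lowest value in CTRL 3. For Klf4, whose own spread was 0.171, they were Dgkd (0.0260), B230110C06Rik (0.0416), Trmt44 (0.0432), Xkr6 (0.0447) and Zc3h3 (0.0450). With 6 libraries this likeness is a description of the profiles.

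Klf6, Klf10 and Klf11 are rapid-response members: Klf6 is induced by injury and growth factors, and Klf10 and Klf11 are early genes of TGF-beta signaling. Klf6 (ENSMUSG00000000078.7, chr13:5861482-5870394) was at 153, 172 and 139 CPM in CTRL and 140.5, 125 and 159 CPM in RbpjΔEC. The groups overlapped, with a log2 fold change of -0.13 (standard error 0.101, 95% interval -0.35 to 0.10, edgeR adjusted p = 0.554). With single libraries left out it ranged from -0.22 without RbpjΔEC 3 to -0.05 without RbpjΔEC 2. Klf10 (ENSMUSG00000037465.10, chr15:38291463-38300706, minus strand) was at 104, 110.1 and 156 CPM in CTRL and 96.1, 118 and 80.4 CPM in RbpjΔEC. CTRL 3 was the highest library and RbpjΔEC 3 the lowest, 1.94 times apart. The log2 fold change of Klf10 was -0.33 (standard error 0.203, 95% interval -0.83 to 0.17, edgeR adjusted p = 0.460), and it was -0.13 without CTRL 3.

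Klf11 (ENSMUSG00000020653.12, chr12:24651274-24662789) was at 60.0, 64.1 and 60.6 CPM in CTRL and at 41.6, 64.2 and 52.2 CPM in RbpjΔEC. The CTRL libraries lay close together, and of the RbpjΔEC libraries 2 were below them and RbpjΔEC 2 was level with the highest. The log2 fold change was -0.23 (standard error 0.135, 95% interval -0.53 to 0.08, edgeR adjusted p = 0.425), and it ranged from -0.39 without RbpjΔEC 2 to -0.08 without RbpjΔEC 1.

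Klf3, Klf7 and Klf13 varied least. Klf3, a repressor that recruits CtBP (ENSMUSG00000029178.14, chr5:64803388-64832901), was at 330.5, 330.5 and 345 CPM in CTRL and 319, 269 and 317 CPM in RbpjΔEC. All RbpjΔEC values were below all CTRL values (exact permutation test of mean CPM, two-sided, p = 0.1, the smallest that 3 libraries against 3 allow), and the log2 fold change was -0.15 (standard error 0.0786, 95% interval -0.32 to 0.02, edgeR adjusted p = 0.341). Without RbpjΔEC 2 it was -0.08. Klf13, a member with activating and repressing roles in lymphocytes and heart (ENSMUSG00000052040.10, chr7:63886351-63938915, minus strand), was at 313, 309.8 and 286 CPM in CTRL and 283, 273 and 278 CPM in RbpjΔEC. Its groups did not overlap either (exact permutation test, two-sided, p = 0.1), but CTRL 3 was close to RbpjΔEC 1. The log2 fold change of Klf13 was -0.12 (standard error 0.0668, 95% interval -0.27 to 0.02, edgeR adjusted p = 0.369).

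Klf7, best known for its role in neurons (ENSMUSG00000025959.13, chr1:64029447-64122282, minus strand), was at 358, 348 and 349 CPM in CTRL and 363, 373 and 339 CPM in RbpjΔEC. These 6 values lay within 1.10 times of each other, the narrowest range of the 10 genes, and the groups overlapped. The log2 fold change was 0.03 (standard error 0.0674) with the narrowest 95% interval but one, -0.12 to 0.18 (edgeR adjusted p = 0.863). The exons of Klf7 share 3196 bases with Gm26649 on the opposite strand, and those of Klf3 share 404 bases with Gm20033, also on the opposite strand. The strand setting of the counting is not given in the sources used here, so reads of these overlaps may be assigned to either gene. Gm20033 had 62 to 122 counts per library.

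**Figure D3:**
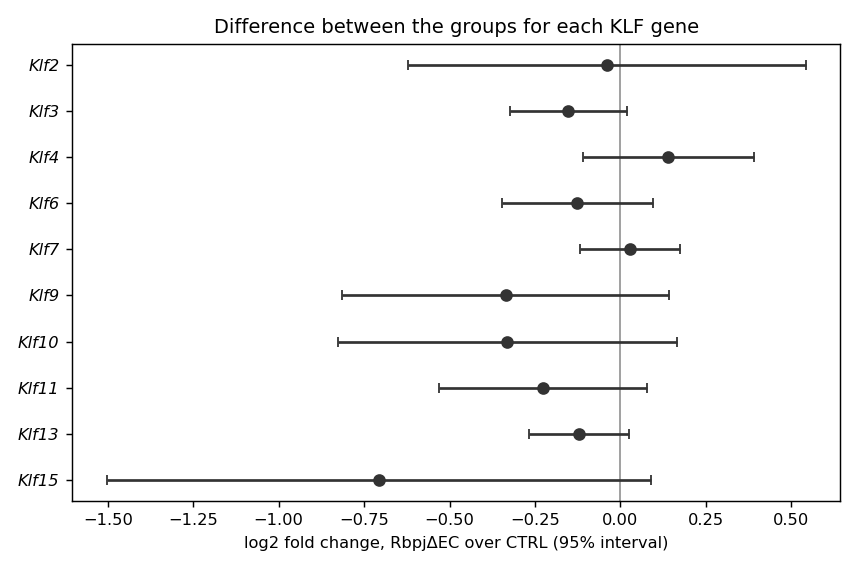
Log2 fold change (RbpjΔEC over CTRL) of each KLF gene from edgeR, with its 95% interval (horizontal bars); the grey line marks 0. All 10 intervals include 0, and those of Klf15 and Klf2 are the widest.

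Klf9 and Klf15, which are known to be induced by glucocorticoids, had the lowest values in the same libraries. Klf9 (ENSMUSG00000033863.2, chr19:23141226-23168134) was at 249, 325 and 298 CPM in CTRL and 188, 205 and 299 CPM in RbpjΔEC. RbpjΔEC 1 and 2 were below every CTRL library, while RbpjΔEC 3 lay within the CTRL range. The means of 291 ± 38.5 and 230.4 ± 60.0 CPM gave a log2 fold change of -0.34 (standard error 0.197, edgeR adjusted p = 0.438), with a 95% interval that spans 0.569 to 1.10 times the CTRL level. Without RbpjΔEC 3, Klf9 passed the threshold with a log2 fold change of -0.57 (edgeR adjusted p = 0.0183), in a fit where 1.74% of the genes tested were called lower. Without RbpjΔEC 1 the fold change was -0.21 (edgeR adjusted p = 0.711).

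Klf15 (ENSMUSG00000030087.11, chr6:90462576-90475238), a factor of metabolism that is also expressed in podocytes, was scarce, with 88, 109 and 151 counts in CTRL and 49, 51 and 106 counts in RbpjΔEC. These are 2.19, 2.30 and 3.58 CPM in CTRL and 1.09, 1.22 and 2.65 CPM in RbpjΔEC. RbpjΔEC 1 and 2 were again below all CTRL libraries and RbpjΔEC 3 was above CTRL 1 and 2. The log2 fold change of -0.71 (standard error 0.363, edgeR adjusted p = 0.340) had a 95% interval of -1.50 to 0.09. Without RbpjΔEC 3 it was -1.22 (edgeR adjusted p = 0.0755), and without CTRL 3 it was -0.45. The podocyte marker Nphs1 was at 1.67, 1.39 and 2.98 CPM in CTRL and 0.691, 0.334 and 2.42 CPM in RbpjΔEC, with RbpjΔEC 1 and 2 lowest as for Klf15. Summed over 4 podocyte genes, however, the level was 185 to 200.2 CPM in CTRL and 179 to 217 CPM in RbpjΔEC. The part of podocyte RNA in the Klf15 values was not tested.

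The library RbpjΔEC 3 differed from RbpjΔEC 1 and 2 in other genes as well, here chosen after their values were seen. The glucocorticoid-induced gene Fkbp5, a chaperone of the glucocorticoid receptor, was at 52.4, 135 and 105 CPM in CTRL and 40.8, 55.6 and 161 CPM in RbpjΔEC. Zbtb16, a transcription factor of the same list, was at 57.5, 149 and 84.7 CPM in CTRL and 25.5, 87.2 and 273 CPM in RbpjΔEC. In both genes RbpjΔEC 3 was the highest of the 6 libraries and RbpjΔEC 1 the lowest. Of the 11 glucocorticoid-induced genes, 0 passed in either direction, with a median log2 fold change of -0.03. In log2 CPM, 10 of the 11 were above their mean over the 6 libraries in RbpjΔEC 3, all but Pdk4, and 10 were also above it in CTRL 2, the library with the highest Klf9 value. In RbpjΔEC 1, 9 were below it, all but Cdkn1a and Angptl4. In each of CTRL 1, CTRL 3 and RbpjΔEC 2, 4 were above it and 7 below, although CTRL 3 had the highest Klf15 value. The 4 plotted with Klf9 and Klf15 were chosen after their values were seen. Those with the smallest p were the metallothioneins Mt1 (-1.09, edgeR adjusted p = 0.193) and Mt2 (-1.23, edgeR adjusted p = 0.216). RbpjΔEC 3 also held the most RNA of proximal tubule genes, with Lrp2 at 129 CPM against 40.4 CPM or less in the other 5 libraries and Slc34a1 at 73.5 CPM against 21.95 or less. The part of these differences in the Klf9 and Klf15 values was not tested.

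**Figure D4:**
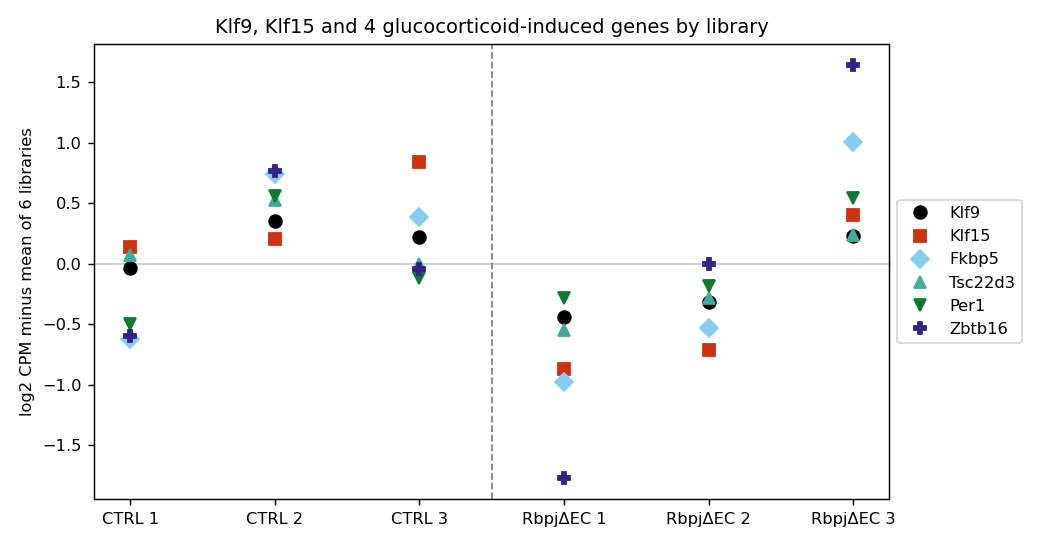
Log2 CPM minus the mean of the 6 libraries (vertical axis) for Klf9, Klf15 and the glucocorticoid-induced genes Fkbp5, Tsc22d3, Per1 and Zbtb16 in each library, with CTRL to the left of the dashed line and RbpjΔEC to the right. In RbpjΔEC 3 all 6 genes were above their mean, and in RbpjΔEC 1 all 6 were below it.

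Genes upstream of Klf2 and Klf4 were read as a list of 22 flow sensors, junctional proteins and members of the ERK5-MEF2 arm. None passed the test, and the median log2 fold change of 0.01 was that of all tested genes. The smallest p-values belonged to Heg1 and Kdr. Heg1, the receptor of the CCM complex that restrains Klf2 and Klf4, was at 2165, 1927 and 2241 CPM in CTRL and 1558, 1428 and 1798 CPM in RbpjΔEC. These groups did not overlap, and the log2 fold change was -0.40 (standard error 0.0966, edgeR adjusted p = 0.0684). Kdr, the main VEGF receptor of ECs, averaged 5994 ± 308 CPM in CTRL and 4960 ± 44.3 CPM in RbpjΔEC (-0.27, edgeR adjusted p = 0.106). Mapk7, which encodes ERK5, was chosen after its values were seen and was at 40.3, 44.7 and 36.8 CPM in CTRL and 51.2, 53.4 and 42.8 CPM in RbpjΔEC, with overlapping groups (0.28, edgeR adjusted p = 0.191).

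Of the 13 genes listed as raised by KLF2 or KLF4 in ECs, 11 were tested, and Nppc and Ptgds had too few counts. None passed the test, while 10 of the 11 had a negative fold change, with a median of -0.29 against 0.01 for all tested genes. At an unadjusted p under 0.05, 6 were lower and 0 higher, and 8.62% of all tested genes were lower at that cutoff. The smallest p was that of Gja4, the gap junction protein connexin 37, at 35.5, 32.3 and 49.4 CPM in CTRL and 26.3, 24.0 and 22.8 CPM in RbpjΔEC. The groups did not overlap, and the log2 fold change was -0.68 (standard error 0.147, edgeR adjusted p = 0.0622). Slc9a3r2, a scaffold protein of ion exchangers, came next with 934 ± 76.9 and 764 ± 58.5 CPM (-0.29, edgeR adjusted p = 0.117).

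Further genes of this list were chosen after their values were seen. Thbd, the anticoagulant receptor thrombomodulin, was at 619, 599.9 and 521 CPM in CTRL and 469.7, 514 and 466 CPM in RbpjΔEC (-0.26, edgeR adjusted p = 0.131). All RbpjΔEC values of Thbd were below all CTRL values, CTRL 3 by a narrow margin. Plat, the tissue plasminogen activator, was at 693, 956 and 886 CPM in CTRL and 425, 399 and 665 CPM in RbpjΔEC, again without overlap (-0.77, edgeR adjusted p = 0.185). Nos3, the endothelial nitric oxide synthase, overlapped between the groups at 232 ± 20.0 and 218 ± 28.4 CPM (-0.09, edgeR adjusted p = 0.674). The summed level of the list was 5242 to 5439 CPM in CTRL and 4235 to 4351 CPM in RbpjΔEC. The 8 endothelial markers, with which the list shares Tek, had a median of -0.18 on the log2 scale, and 7 of the 8 were negative, with 0 past the test. The part of endothelial RNA content in the level of this list was not tested.

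The calls on this list depended on the analysis. DESeq2 called S1pr1 and Gja4 lower, and the edgeR fit without a low-count filter called Thbd, S1pr1, Gja4 and Slc9a3r2. Leaving out CTRL 2 called Gja4, and leaving out RbpjΔEC 3 called S1pr1 and Plat. S1pr1, the receptor for sphingosine 1-phosphate that stabilizes EC junctions, was at 398, 522 and 429 CPM in CTRL and 293, 286 and 409.6 CPM in RbpjΔEC. As for Klf9, its RbpjΔEC 1 and 2 values were below all CTRL values and RbpjΔEC 3 was within the CTRL range.

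The 9 genes listed as lowered by KLF2 or KLF4 had mixed signs, 4 positive and 5 negative, with 0 past the test and a median log2 fold change of -0.10. Edn1, the vasoconstrictor endothelin 1, had the smallest p, with 45.7 ± 11.1 CPM in CTRL and 33.5 ± 5.94 CPM in RbpjΔEC (-0.45, edgeR adjusted p = 0.315). Adm, the vasodilator adrenomedullin, followed with 6.68, 8.60 and 6.35 CPM in CTRL and 6.80, 17.9 and 9.03 CPM in RbpjΔEC, where RbpjΔEC 2 stood highest and the groups overlapped (0.64, edgeR adjusted p = 0.424). The adhesion molecule Vcam1, chosen after its values were seen, had a log2 fold change of -0.14 (edgeR adjusted p = 0.477).

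Among the other KLF genes and the related SP genes, 10 of 16 were tested and 0 passed, with a median log2 fold change of 0.02. Klf12, a repressor that recruits CtBP, was nearest to the threshold at 113, 117 and 119 CPM in CTRL and 94.8, 96.0 and 95.3 CPM in RbpjΔEC. These groups were far apart relative to their spread, at 116 ± 2.91 and 95.4 ± 0.574 CPM, with a log2 fold change of -0.29 (standard error 0.0635, edgeR adjusted p = 0.0566). Klf12 passed with DESeq2 (adjusted p = 0.0255), with edgeR without the low-count filter (adjusted p = 0.0215) and with edgeR without CTRL 2 (adjusted p = 0.0475). With any other single library left out, its edgeR adjusted p was between 0.0674 and 0.219. Sp2 came next, with a log2 fold change of -0.22 (edgeR adjusted p = 0.289). Of 11 cofactors and ubiquitin ligases of KLFs, 0 passed, with a median of -0.02, and the smallest p-values were those of the Sin3 subunit Sin3b (0.11, edgeR adjusted p = 0.460) and the corepressor Ctbp2 (-0.10, edgeR adjusted p = 0.480).

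The immediate-early genes, which rise within minutes of many stimuli and to which Klf2, Klf4, Klf6 and Klf10 are functionally close, included the only calls among the 9 pathway lists. Of 26 tested, 8 rose and 0 fell, 25 had a positive fold change and the median was 0.51 on the log2 scale. Among all 18438 tested genes, 0.575% rose past the threshold and 9419 had a positive fold change. Egr1, a zinc finger factor induced by growth factors and shear stress, rose by 0.66 on the log2 scale (edgeR adjusted p = 0.00649), with 506, 585 and 528 CPM in CTRL and 802, 945 and 815 CPM in RbpjΔEC. The antiproliferative gene Btg2 rose by 0.58 (edgeR adjusted p = 0.0212). Ppp1r15a, which restarts translation after stress, rose by 0.46 (edgeR adjusted p = 0.0324). Egr3 rose by 1.00 (edgeR adjusted p = 0.0326) and the stress factor Atf3 by 0.55 (edgeR adjusted p = 0.0387). In each of these 5 genes all RbpjΔEC libraries were above all CTRL libraries, whereas Klf2, Klf4, Klf6 and Klf10 overlapped between the groups. Of the 18438 tested genes, 2099 had all RbpjΔEC libraries above all CTRL libraries. The difference between the KLF genes and this list was not tested. The count of 8 rested on several libraries. It was 1, Egr1 alone, without CTRL 1, RbpjΔEC 1 or RbpjΔEC 2, and 0 without CTRL 3. Without CTRL 2 it was 13 and without RbpjΔEC 3 it was 14. The count of all genes called in these fits was between 21 and 700.

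The lists for the stimuli of the remaining members showed no such rise. Of 10 early TGF-beta response genes, 0 passed, with a median log2 fold change of -0.12. The SMAD corepressors Skil (-0.27, edgeR adjusted p = 0.261) and Tgif1 (0.41, edgeR adjusted p = 0.281) had the smallest p-values and opposite signs. Of 13 circadian clock genes, 0 passed, with a median of 0.03, and the smallest p-values were those of Ciart (0.78, edgeR adjusted p = 0.215) and Npas2 (-1.51, edgeR adjusted p = 0.289), which was below 1 CPM in every library.

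**Figure D5:**
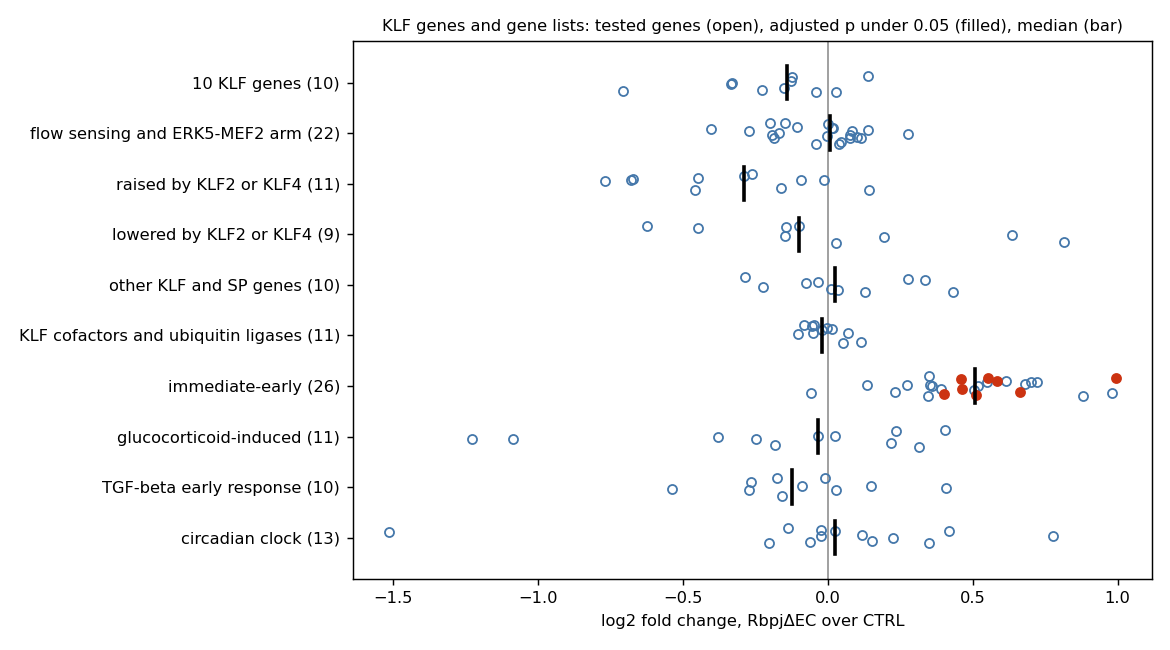
Log2 fold change (horizontal axis, RbpjΔEC over CTRL) of every tested gene in the KLF group and in 9 lists, with the number of tested genes in brackets, a black bar at the median and filled red points for genes past the adjusted p threshold of 0.05. Filled points appear in the immediate-early list alone (8 genes), and the median of the genes raised by KLF2 or KLF4 lies at -0.29.

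RNA of mural cells, which surround ECs, was lower in the RbpjΔEC libraries. Of 8 tested markers 3 fell past the threshold, where 0.559% of all tested genes did. The summed level was 85.3 to 112 CPM in CTRL and 35.1 to 56.9 CPM in RbpjΔEC. The called genes were Acta2, Myh11 and Rgs5. For macrophage genes the sums were 26.3 to 31.5 and 33.2 to 38.5 CPM, with Cd68 past the threshold as higher and Mrc1 as lower. Cd68 alone averaged 9.97 ± 2.71 CPM in CTRL and 24.0 ± 1.70 CPM in RbpjΔEC (SD, n = 3 each), while the other 5 tested macrophage genes had negative fold changes and the list median was -0.73 on the log2 scale. The 8 tubule genes summed to 278 to 416 CPM in CTRL and 106 to 392 CPM in RbpjΔEC, with opposite signs within the list and 0 past the threshold. The proximal genes Lrp2, Cubn, Slc34a1 and Slc5a2 had positive fold changes, while Umod and Slc12a1 of the loop of Henle, Slc12a3 of the distal tubule and Aqp2 of the collecting duct had negative ones. Umod averaged 76.9 ± 26.1 and 33.6 ± 13.3 CPM and Slc12a1 90.1 ± 38.2 and 37.9 ± 18.4 CPM. Both and Aqp2 were lower in RbpjΔEC without overlap between the groups. Slc5a2 did not overlap either but was higher, at 1.32, 2.43 and 2.75 CPM in CTRL and 3.08, 2.98 and 9.21 CPM in RbpjΔEC. Of all 18438 tested genes, 11.6% were lower without overlap and 2099 were higher without overlap. KLF genes are expressed in many cell types, and the part of other cells in the values above was not tested.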

How the data were processed

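Bulk RNA-seq of sorted kidney ECs from 3 CTRL and 3 RbpjΔEC mice was analysed. The authors trimmed reads with Trim Galore 0.6.4, aligned them with STAR 2.6.1d in an nf-core pipeline to GRCm38.p6 with a GENCODE annotation, counted reads per gene with featureCounts (Subread 1.6.4) and deposited raw whole-number counts. From these counts, TMM-scaled CPM and quasi-likelihood tests on genotype were computed with edgeR 4.0.16 in R 4.3.3, over the 18438 genes kept by filterByExpr, with Benjamini-Hochberg adjustment and a threshold of 0.05. Standard errors are the log2 fold change divided by the square root of F, and 95% intervals used t quantiles. DESeq2 1.42.0 was an alternative, beside other scaling, no low-count filter, a replicate block and each library left out. Coordinates and exonic lengths came from an earlier GENCODE release (M21, GRCm38) than that of the authors, so lengths can differ. The fit was also run on simulated counts with known changes larger than the KLF fold changes, so that run did not examine changes of their size. With 3 mice per group, spread between mice exceeds counting error. No libraries of a group held identical counts.

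Members and lists were chosen with earlier results of these data known. Named are all members, Rbpj, in each list the genes past the threshold (at most 5 of smallest p per direction) or otherwise the 2 of smallest p, markers that move with a result, and the 5 nearest profiles (mean of at least 5 CPM) for Klf2 and Klf4. Other genes are marked as chosen after their values were seen. Some genes are in more than 1 list: Pecam1, Cdh5 and Kdr (flow, endothelial), Tek (raised, endothelial) and Per1 (glucocorticoid, clock), among others. In leukocyte and stromal lists, B cell genes summed to 0.676 to 0.823 CPM in CTRL and 0.245 to 0.599 CPM in RbpjΔEC, T cell genes to 2.13 to 3.27 and 1.42 to 2.30 CPM, stroma to 3.40 to 4.91 and 1.07 to 2.12 CPM (Pdgfra lower), and Ptprc to 1.16 to 3.92 and 0.535 to 1.60 CPM.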

Additional observations from a re-analysis of the deposited data

How the results depend on the processing

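The number of KLF genes called higher was 0 under all 11 alternatives. The number called lower was 0 except without RbpjΔEC 3, where Klf9 was called, so the range with libraries left out was 0 to 1. At an unadjusted p under 0.05, 3 KLF genes passed with the replicate block (Klf9, Klf11 and Klf15), where 16.5% of all genes did. Of 110 recomputed KLF fold changes, 103 kept their sign and side of the threshold. For Klf2 the log2 fold change turned to 0.00017 with library size alone, 0.00604 with the replicate block, 0.0435 without CTRL 1, 0.128 without CTRL 2 and 0.00222 without RbpjΔEC 1, and its range with libraries left out was -0.27 to 0.13. For Klf7 it turned to -0.000997 without RbpjΔEC 2, in a range that reached 0.0672 with libraries left out; the cause was not tested. The count of all genes called, 209 in the report, was 1436 without the low-count filter, 584 with DESeq2 and 344 with the replicate block. It was between 21 and 700 with libraries left out. With library size alone, 159 of 241 calls were higher and 82 lower, and the median over all genes was 0.05. The immediate-early count of 8 became 19 without the filter, 18 with DESeq2 and 16 with the block, and 0 to 14 with libraries left out. Of the genes raised by KLF2 or KLF4, 4 were called lower without the filter, 2 with DESeq2, 1 with the block and 0 to 2 with libraries left out. The replicate numbers were not taken to pair the mice. Across all tested genes the deviations of same-numbered libraries correlated at 0.0231, 0.00916 and 0.00544. Single genes, such as some clock genes, can still follow the number. Klf9, Klf11 and Klf15, which passed unadjusted with the replicate block, also did so. In each of them replicate 1 was the lowest library of both groups. With 3 mice per group, the 95% interval of Klf2 spans 0.650 to 1.46 times the CTRL level and that of Klf15 0.353 to 1.06 times.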

Other observations

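Some circadian clock genes, chosen after their values were seen, differed widely between mice of the same group. The output gene Dbp was at 27.6, 70.0 and 103 CPM in CTRL 1 to 3 and 32.7, 78.5 and 81.3 CPM in RbpjΔEC 1 to 3, and the repressor Nr1d1 at 130.0, 180 and 273 CPM and 110.3, 196 and 200.3 CPM. In both genes, and in Tef, Per3 and Nr1d2, replicate 1 was the lowest of its group, and in Arntl it was the highest, at 87.0 CPM in CTRL 1 and 84.8 CPM in RbpjΔEC 1. The core gene Clock varied less, at 168 ± 5.62 CPM in CTRL and 165 ± 9.67 CPM in RbpjΔEC. The time of day at which each mouse was taken is not given in the sources used here, and its part in the level of any KLF gene was not tested. The ratio of Klf4 to Klf2 in CPM was 0.714, 0.782 and 1.03 in CTRL and 1.03, 0.917 and 0.823 in RbpjΔEC, with no separation of the groups.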
